A study of Danio rerio with 6 samples.

Results

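Glutathione turnover and NADPH supply were followed through 7 genes, *gclm*, *chac1*, *ggt1a*, *gpx1b*, *pgd*, *tktb* and *idh2*, of the 31388 genes in the table of exonic counts. They were chosen by name for their places in the pathway, from gene symbols that the supplementary gene tables of the study pair with Ensembl identifiers, and all 7 passed the filter on low counts that left 26544 genes for testing. The names of *gclm*, *chac1*, *ggt1a* and *pgd* stand only in a table that is ordered by the outcome of this same comparison, so the choice of genes was not independent of how they changed.

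Glutathione is a tripeptide of glutamate, cysteine and glycine and the main low-molecular-weight thiol of animal cells. Glutamate-cysteine ligase performs the rate-limiting step of its synthesis, gamma-glutamyl enzymes break it down inside and outside the cell, and glutathione peroxidases oxidise it while they reduce peroxides. Glutathione reductase restores the reduced form with NADPH, which comes largely from the oxidative branch of the pentose phosphate pathway, from isocitrate dehydrogenases, from malic enzymes and from folate-dependent enzymes.

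RNA-seq compared *fdx1b*-/- zebrafish larvae with wild-type siblings, to ask how a lack of glucocorticoid changes gene expression. *fdx1b* encodes a mitochondrial ferredoxin that passes electrons to steroidogenic enzymes. Both genotypes were of the AB strain, labelled as controls (CTR), 5 days old, and sampled 3 hours after lights on. The figures of the study use CTR for vehicle controls, and the column labels do not say whether these larvae received vehicle. Each of the 3 biological replicates per genotype came from whole larvae, pooled 20 at a time. The mutants were recognised by their failure to adapt their pigment to the background, so the genotype was read from a phenotype, the genotyping of the siblings is not given in the sources used here, and the mutation was present in all tissues from fertilisation. In pooled whole larvae, fewer cells of a type and less RNA per cell cannot be told apart.

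Exonic counts summed to 37099965 to 43594050 in the *fdx1b*-/- libraries and to 18247332 to 49908095 in the sibling libraries, of which replicate 2 was the smallest. The targeted gene had 29, 27 and 42 counts in *fdx1b*-/- libraries 1 to 3, against 30, 10 and 27 counts in the sibling libraries. Its log2 fold change of 0.38 (SE 0.25) did not pass the edgeR quasi-likelihood test (Benjamini-Hochberg adjusted p = 0.42), and the groups overlapped, so the level of *fdx1b* RNA does not check the genotype labels. The summed levels of tissue markers differed between the genotypes, and some single markers were called, as given below. The summed level of 10 liver markers was 4050 to 4110 CPM (counts scaled to library size) in *fdx1b*-/- larvae and 2740 to 3450 CPM in siblings. That of 6 exocrine pancreas markers was 3320 to 3920 CPM in *fdx1b*-/- larvae and 4210 to 4760 CPM in siblings, that of 6 fast muscle markers 10900 to 12000 CPM in *fdx1b*-/- larvae and 8780 to 10100 CPM in siblings, and that of 5 neuron markers 658 to 717 CPM in *fdx1b*-/- larvae and 723 to 781 CPM in siblings. Summed levels were 1350 to 1460 CPM in *fdx1b*-/- larvae and 1190 to 1330 CPM in siblings for 6 intestine markers, and 510 to 516 CPM in *fdx1b*-/- larvae and 436 to 480 CPM in siblings for 5 erythrocyte markers. A sum is weighted to its most abundant genes, and single markers did not all follow it. The log2 fold change was above 0 for 9 of 10 liver, 4 of 6 intestine and 4 of 5 erythrocyte markers. It was above 0 for 6 of 6 fast muscle, 0 of 6 exocrine pancreas and 1 of 5 neuron markers. No marker was at 0 and the ranges of the genotypes did not overlap for any of the 6 marker lists. In each list some or most markers have names that stand only in a table ordered by the outcome of this same comparison. The separation of the sums is therefore no independent evidence of a shift between tissues. The part of these differences in the results that follow was not tested.

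Of the 7 genes, *chac1* was lower and *tktb* was higher in *fdx1b*-/- larvae, and the other 5 did not pass. A gene was called when its adjusted p was 0.01 or less and its log2 fold change was 0.25 or more in size. By this rule 164 of the 26544 genes (0.618%) were called higher and 132 (0.497%) were called lower. With the same limits DESeq2 called 2.15% higher and 2.18% lower of the 20422 genes to which it gave an adjusted p. At an unadjusted p under 0.05, 9.21% of the 26544 genes were higher and 10.4% were lower in the edgeR test. Among the marker lists, 2 liver genes and 1 intestine gene were called higher and 1 liver gene lower, and no marker of exocrine pancreas, erythrocytes, fast muscle or neurons was called. At an adjusted p of 0.05, 4 liver markers were higher and 1 lower, and 2 intestine markers were higher and 1 lower. At the same limit 4 exocrine pancreas markers were lower, 3 fast muscle markers and 1 erythrocyte marker were higher, and 0 neuron markers passed. With an adjusted p of at most 0.05 and no limit on the fold change, 1.94% of all tested genes were higher and 1.95% were lower, and *ggt1a* joined the lower genes. The 3 mutant values lay above all 3 sibling values for *gclm*, *pgd* and *tktb* and below them for *chac1* and *ggt1a*, against 12.9% and 13.0% of all tested genes in these directions. The plot of the 7 genes by library shows these positions.

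**Figure D1:**
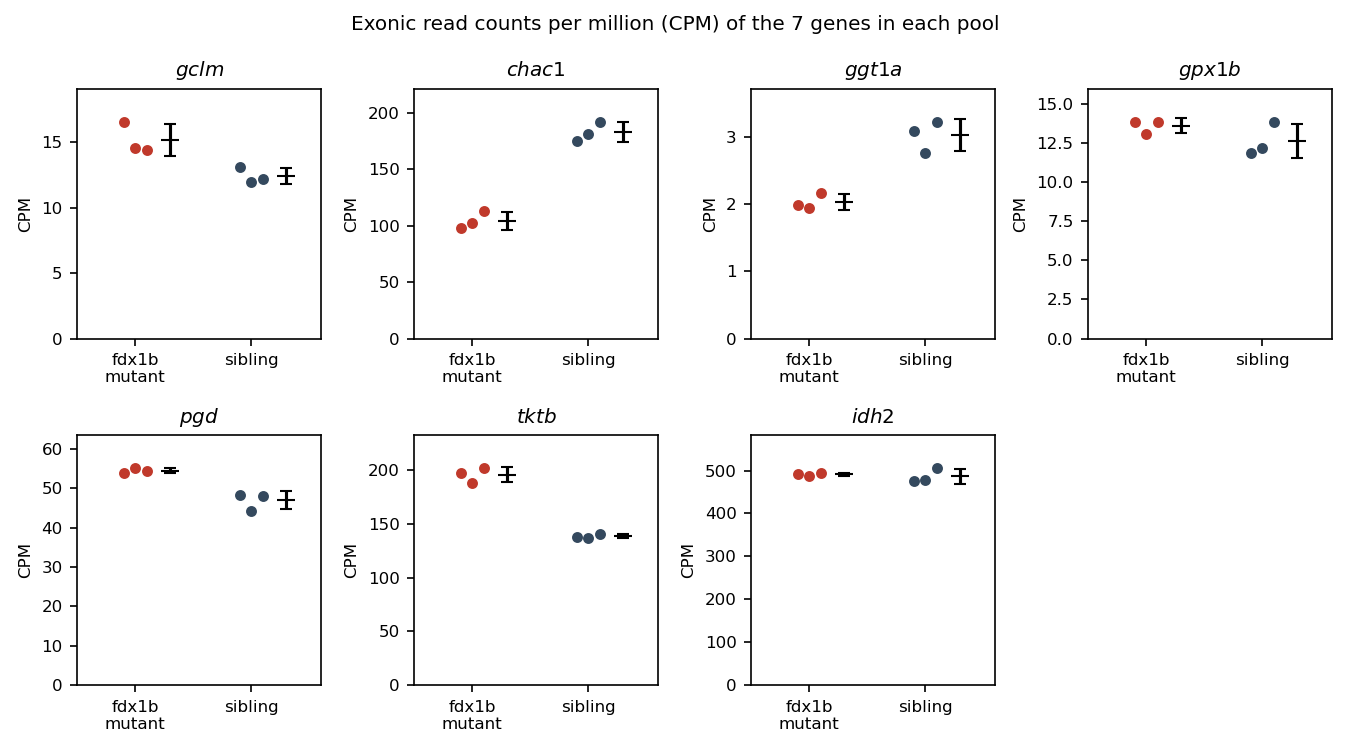
Exonic read counts scaled to library size (CPM, linear axes from 0) of the 7 genes in each pool of 20 larvae, with *fdx1b* mutants in red on the left and siblings in dark blue on the right, and the mean ± SD of each group of 3 as a black bar. The mutant points of *chac1* and *ggt1a* lie below and those of *gclm*, *pgd* and *tktb* above all sibling points, while *gpx1b* and *idh2* overlap.

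The genes spanned a wide range of levels. Per kb of exon, *idh2* had the highest mean level, at 255.5 ± 1.67 CPM per kb in *fdx1b*-/- larvae and 253.1 ± 8.93 CPM per kb in siblings (SD, n = 3 each). *ggt1a* had the lowest, at 0.935 ± 0.0545 CPM per kb in *fdx1b*-/- larvae and 1.39 ± 0.112 CPM per kb in siblings (SD, n = 3 each). From high to low, the order in siblings was *idh2*, *chac1*, *tktb*, *pgd*, *gpx1b*, *gclm* and *ggt1a*, and no neighbours in that order overlapped between their libraries.

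In *fdx1b*-/- larvae *tktb* and *chac1* were not separated. *tktb* had 62.6 to 67.3 CPM per kb there, and *chac1* had 57.2 to 66.6 CPM per kb. In siblings the same genes stood apart, with 45.6 to 47.0 CPM per kb for *tktb* and 103 to 113 CPM per kb for *chac1*. The other neighbours in the order kept apart in the *fdx1b*-/- libraries, as the plot of levels per kb shows.

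**Figure D2:**
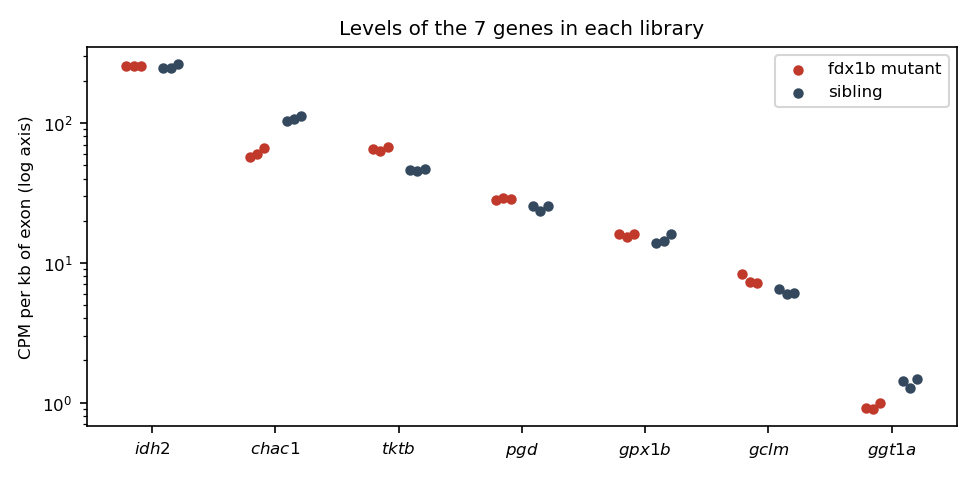
Levels of the 7 genes in CPM per kb of exon (log axis), ordered by level in siblings, with 1 point per library, *fdx1b* mutants in red on the left and siblings in dark blue on the right of each position. *chac1* and *tktb* are at nearly the same level in the mutants and apart in the siblings, and *ggt1a* is the lowest in both genotypes.

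Synthesis was represented by *gclm* (ENSDARG00000018953), the modifier subunit of glutamate-cysteine ligase, which raises the efficiency of the catalytic subunit. It had 16.6, 14.6 and 14.4 CPM in *fdx1b*-/- larvae, against 13.1, 12.0 and 12.2 CPM in siblings. Every mutant pool was above every sibling pool, and mutant replicate 1 was the highest. The means were 15.2 ± 1.23 CPM in *fdx1b*-/- larvae and 12.4 ± 0.612 CPM in siblings (SD, n = 3 each). The log2 fold change of 0.29 (SE 0.08, 95% confidence interval 0.10 to 0.47) did not pass the edgeR quasi-likelihood test (Benjamini-Hochberg adjusted p = 0.0857).

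None of the 7 tested genes of synthesis and precursor supply, *gclm* included, was called in either direction, also at an adjusted p of 0.05. Of all genes 0.618% and 0.497% were called (1.94% and 1.95% at 0.05), so 0 of 7 does not set this step apart. The median log2 fold change was -0.03 against -0.00285 for all tested genes, and it covers precursor genes as well as *gclm*, *gclc* and *gss*. At an unadjusted p of 0.05 the edgeR test had 3 of them higher and 1 lower, against 9.21% and 10.4% of all genes. DESeq2 called 0, against 2.15% and 2.18% of the genes to which it gave an adjusted p. *gclc*, the catalytic subunit, had a log2 fold change of 0.11 (SE 0.05), and *gss*, the synthetase that adds glycine, 0.22 (SE 0.08). In both the 3 mutant values lay above all sibling values. *slc7a11*, the cystine importer, had few reads, with 56, 68 and 75 counts in *fdx1b*-/- larvae and 88, 21 and 77 counts in siblings, and its interval, from -0.45 to 0.39 on the log2 scale, was wide. The 2 genes named *cth* in the reference name table, which encode the cysteine-forming cystathionine gamma-lyase, had log2 fold changes of -0.19, with all mutant values below all sibling values, and -0.06, with overlap.

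Degradation held the largest change among the 7 genes. *chac1* (ENSDARG00000070426) encodes a cytosolic gamma-glutamylcyclotransferase that cleaves glutathione, and is known in mammals as a target of the transcription factor ATF4 during amino acid and endoplasmic reticulum stress. It had 97.4, 102 and 113 CPM in *fdx1b*-/- larvae, against 175, 181 and 192 CPM in siblings. The highest mutant pool was well below the lowest sibling pool. The means were 104 ± 8.24 CPM in *fdx1b*-/- larvae and 182 ± 8.55 CPM in siblings (SD, n = 3 each). *chac1* fell by 0.81 on the log2 scale (SE 0.07, 95% confidence interval of the log2 fold change -0.97 to -0.65), to 0.571 times the sibling level. It passed the edgeR quasi-likelihood test (Benjamini-Hochberg adjusted p = 0.000142) and was rank 34 by p-value of the 26544 genes. The gene was called lower under all 15 other settings, with each library left out in turn among them.

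*ggt1a* (ENSDARG00000023526) encodes a gamma-glutamyltransferase, the class of cell-surface enzyme that starts the breakdown of extracellular glutathione. It had 1.99, 1.95 and 2.17 CPM in *fdx1b*-/- larvae, against 3.09, 2.76 and 3.23 CPM in siblings. All mutant pools were below all sibling pools. These levels rest on 73, 80 and 95 counts in *fdx1b*-/- larvae and 155, 50 and 129 counts in siblings. The 50 counts of sibling replicate 2 carry an exact Poisson 95% interval of 37.1 to 65.9, which covers counting error only. The means were 2.04 ± 0.119 CPM in *fdx1b*-/- larvae and 3.03 ± 0.243 CPM in siblings (SD, n = 3 each). The log2 fold change of -0.58 (SE 0.14, 95% confidence interval -0.89 to -0.28) had an adjusted p of 0.0416 in the edgeR quasi-likelihood test (Benjamini-Hochberg adjustment) and was not called. With libraries left out in turn it lay between -0.63 and -0.53, with an adjusted p of 0.0241 without sibling replicate 2 and of 0.0701 to 0.177 without each of the others. In the RefSeq gene table a long noncoding RNA and the protein-coding gene *lrrc75ba* overlap *ggt1a*, and the use of strand in counting was not stated, so reads from the 3 genes may not be separated. No such overlap was listed for the other 6 genes.

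Of the 7 tested genes on the degradation list, *chac1* included, 1 was called lower and 1 higher, against 0.497% and 0.618% of all genes. The median log2 fold change was -0.03. The gene called higher was *zgc:152830*, whose role in degradation is uncertain. Without it, 0 of the other 6 were higher and 1 was lower, by edgeR and by DESeq2. DESeq2 called 2.15% higher and 2.18% lower of all genes to which it gave an adjusted p. At an unadjusted p of 0.05 the edgeR test had 0 of the 6 higher and 2 lower, against 9.21% and 10.4% of all genes. The median of the 6 was -0.04. *zgc:152830* had a log2 fold change of 0.38 (SE 0.06) and an adjusted p of 0.0034 in the edgeR quasi-likelihood test (Benjamini-Hochberg adjustment), and lost the call without any 1 mutant library or without sibling replicate 1 (adjusted p of 0.0171 to 0.0315). *ggctb*, a gamma-glutamylcyclotransferase that acts on gamma-glutamyl amino acids, had a log2 fold change of 0.17, and *oplah*, the 5-oxoprolinase that returns the product of these enzymes to glutamate, 0.05. The names of *chac1*, *ggt1a* and *zgc:152830* stand only in the table ordered by the outcome. The counts of the degradation list are therefore no independent evidence of a direction.

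The paralogs of both genes overlapped between the genotypes. *chac2*, a slower cyclotransferase of the same family, had 4.65, 4.58 and 5.05 CPM in *fdx1b*-/- larvae and 5.20, 4.85 and 4.66 CPM in siblings (log2 fold change -0.04, SE 0.10). *ggt1b* had 20.9, 19.2 and 20.2 CPM in *fdx1b*-/- larvae and 20.2, 20.9 and 20.6 CPM in siblings (log2 fold change -0.03, SE 0.06). Since *chac1* was far more abundant than *chac2*, it held 96.0% to 96.3% of the pair's level per kb in *fdx1b*-/- larvae and 97.5% to 97.9% in siblings. *ggt1a* was the minor copy of its pair. It held 9.89% to 11.0% of the level per kb in *fdx1b*-/- larvae and 13.2% to 15.3% in siblings, and the summed level of the pair was 8.54 to 9.23 CPM per kb in *fdx1b*-/- larvae and 9.45 to 9.68 CPM per kb in siblings.

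In mammals *chac1* is induced together with other stress genes, and 12 genes of that amino acid stress response were tested, *chac1* among them. Of these, 2 were called lower and 1 higher, against 0.497% and 0.618% of all genes, with a median log2 fold change of -0.05. At an unadjusted p of 0.05 the edgeR test had 4 higher and 3 lower, against 9.21% and 10.4% of all genes. DESeq2 called 2 higher and 2 lower, against 2.15% and 2.18% of the genes to which it gave an adjusted p. *ddit4*, an inhibitor of mTORC1 signalling that is also known as a glucocorticoid target, fell by 0.53 on the log2 scale (SE 0.08, Benjamini-Hochberg adjusted p = 0.00503 in the edgeR quasi-likelihood test), and *phgdh*, the first enzyme of serine synthesis, rose by 0.74 (SE 0.09, adjusted p = 0.0013 in the same test). With libraries left out, *ddit4* lost the call without any 1 mutant library (edgeR adjusted p of 0.0135 to 0.0369) and *phgdh* without mutant replicate 1 or 3 (0.0105 and 0.0115). *ddit3*, *trib3*, *asns* and *atf3* had log2 fold changes of -0.11, -0.07, 0.05 and -0.04, with adjusted p-values of 0.318 to 0.851 in the same test. The remaining genes, *psat1*, *shmt2*, *slc3a2a*, *sesn2* and *vldlr*, had log2 fold changes of 0.47, 0.23, 0.23, -0.29 and -0.14. None of these was called, with adjusted p-values of 0.0561 to 0.323 in the same test. The names of *chac1*, *ddit4* and other genes of this list stand only in the table ordered by the outcome, so its counts are no independent evidence of a direction.

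Use of glutathione was represented by *gpx1b* (ENSDARG00000006207), a copy of the cytosolic glutathione peroxidase gene. It had 13.9, 13.1 and 13.9 CPM in *fdx1b*-/- larvae, against 11.9, 12.2 and 13.9 CPM in siblings. Sibling replicate 3 reached the mutant values, so the groups overlapped. The difference was 0.10 on the log2 scale (SE 0.08, Benjamini-Hochberg adjusted p = 0.565 in the edgeR quasi-likelihood test), and its 95% confidence interval, -0.09 to 0.28, does not exclude a change past the fold limit of a call. With libraries left out it was 0.0456 (without sibling replicate 1) to 0.177 (without sibling replicate 3), and it was 0.00601 with all libraries thinned to the smallest total. The paralog *gpx1a* was more abundant, with 53.9, 63.8 and 64.8 CPM in *fdx1b*-/- larvae and 54.9, 51.6 and 63.3 CPM in siblings. These groups overlapped too, and *gpx1b* held 25.1% to 29.6% of the pair's level per kb in *fdx1b*-/- larvae and 26.2% to 27.9% in siblings.

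Of the 9 tested genes of peroxide reduction and recycling, *gpx1b* among them, none was called by edgeR. At an adjusted p of 0.05, 1 was higher, against 1.94% of all genes. At an unadjusted p of 0.05, 5 were higher and 1 lower in the edgeR test, against 9.21% and 10.4% of all genes. DESeq2 called 1 higher, against 2.15% of the genes to which it gave an adjusted p. The median log2 fold change of the list was 0.18, with 8 of 9 values above 0. All 3 mutant values lay above all sibling values in 5 genes and below them in 1, against 12.9% and 13.0% of all tested genes. The list was drawn broadly. *sod1* and *cat*, among the 5 genes above, and *msrb1a*, the gene below, do not use glutathione. The gene that passed at 0.05 was *gpx4b*, a peroxidase of lipid hydroperoxides, at a log2 difference of 0.27 (SE 0.07, Benjamini-Hochberg adjusted p = 0.0444 in the edgeR quasi-likelihood test). *gsr*, the reductase that restores glutathione with NADPH, had 35.7, 34.1 and 33.7 CPM in *fdx1b*-/- larvae and 31.3, 26.5 and 31.1 CPM in siblings. Its groups did not overlap, and its log2 fold change of 0.21 (SE 0.07) was not called. The names of *gpx4b* and other genes of the list stand only in the table ordered by the outcome, so its counts are no independent evidence of a direction.

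NADPH supply by the pentose phosphate pathway was represented by *pgd* and *tktb*. *pgd* (ENSDARG00000015343) encodes 6-phosphogluconate dehydrogenase, an NADPH-forming enzyme of the oxidative branch. It had 53.9, 55.1 and 54.3 CPM in *fdx1b*-/- larvae, against 48.3, 44.3 and 48.1 CPM in siblings. The mutant pools lay close together and above every sibling pool, and sibling replicate 2, the smallest library, was the lowest. The means were 54.4 ± 0.632 CPM in *fdx1b*-/- larvae and 46.9 ± 2.24 CPM in siblings (SD, n = 3 each). The log2 fold change of 0.21 (SE 0.05, 95% confidence interval 0.09 to 0.33) did not pass the edgeR quasi-likelihood test (Benjamini-Hochberg adjusted p = 0.0515), and it was smaller than the fold limit of a call.

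*tktb* (ENSDARG00000006019) encodes a transketolase, which moves sugar phosphates between the nonoxidative branch and glycolysis and forms no NADPH itself. It had 197, 188 and 202 CPM in *fdx1b*-/- larvae, against 138, 137 and 141 CPM in siblings. The groups were far apart and the sibling pools hardly differed. The means were 196 ± 7.20 CPM in *fdx1b*-/- larvae and 139 ± 2.11 CPM in siblings (SD, n = 3 each). *tktb* rose 1.41-fold, a log2 fold change of 0.49 (SE 0.06, 95% confidence interval 0.36 to 0.63), and passed the edgeR quasi-likelihood test (Benjamini-Hochberg adjusted p = 0.00129). The log2 fold change was 0.47 to 0.53 with libraries left out in turn. The call was lost without mutant replicate 1, mutant replicate 3 or sibling replicate 1, where the adjusted p of the same test was 0.0112, 0.012 and 0.0126.

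The other transketolase gene had the opposite sign. *tkta* had 179, 191 and 186 CPM in *fdx1b*-/- larvae, against 225, 223 and 208 CPM in siblings. All mutant pools were below all sibling pools, and the log2 fold change of -0.24 (SE 0.07) was not called (Benjamini-Hochberg adjusted p = 0.0607 in the edgeR quasi-likelihood test). *tktb* held 65.0% to 67.5% of the pair's level per kb in *fdx1b*-/- larvae and 53.6% to 56.1% in siblings. This share depends on the exon lengths, 5666 bases for *tkta* and 3006 bases for *tktb*. Without division by length the sibling means were 219 CPM for *tkta* and 139 CPM for *tktb*. The summed level of the pair was 96.2 to 100 CPM per kb in *fdx1b*-/- larvae and 83.8 to 85.8 CPM per kb in siblings. The pairs of paralogs were set side by side after their values were seen, and these shares are descriptions without a test.

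**Figure D3:**
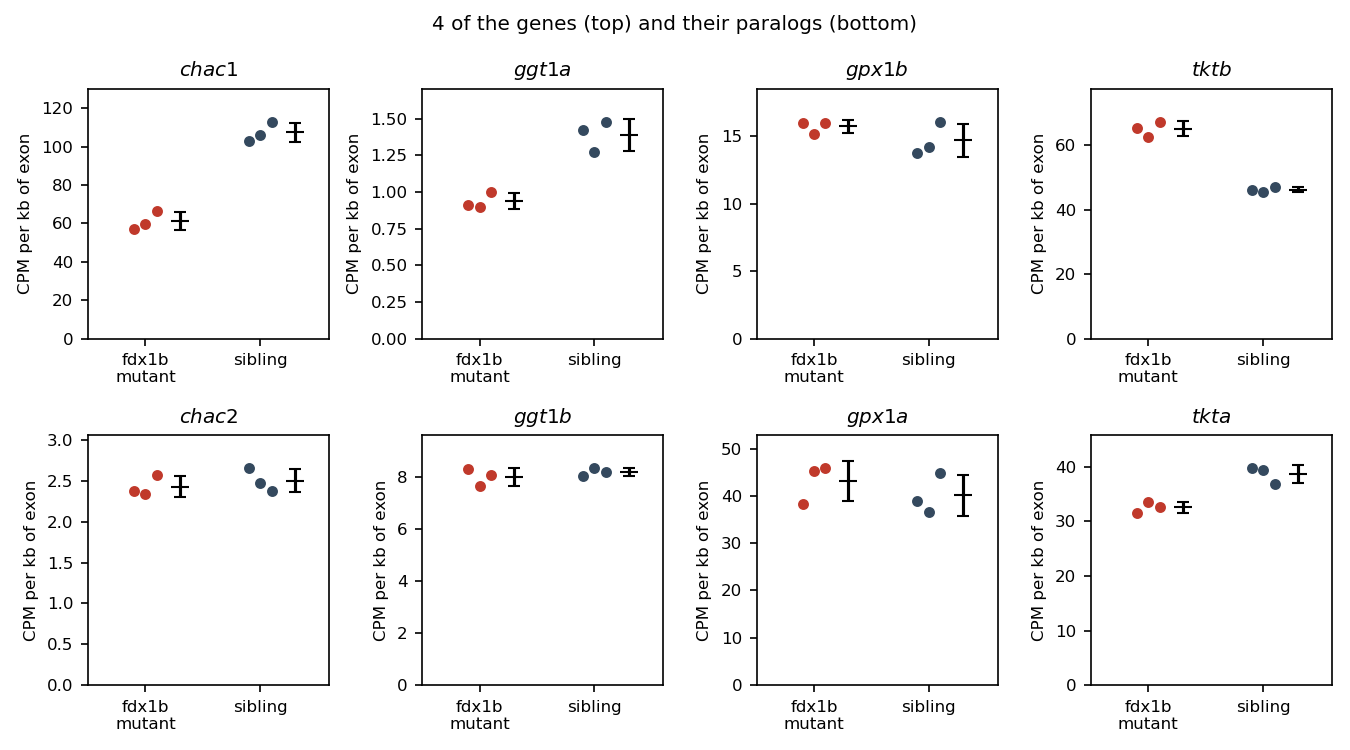
Levels in CPM per kb of exon (linear axes from 0) of *chac1*, *ggt1a*, *gpx1b* and *tktb* in the upper row and of their paralogs *chac2*, *ggt1b*, *gpx1a* and *tkta* in the lower row, with 1 point per library, *fdx1b* mutants in red on the left and siblings in dark blue on the right, and the mean ± SD of 3 libraries in black. Each column holds a pair, and *tktb* and *tkta* are displaced in opposite directions between the genotypes, while *chac2*, *ggt1b* and *gpx1a* overlap.

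Of the 12 genes examined of the pentose phosphate pathway, *pgd* and *tktb* among them, 2 were called higher and 0 lower, against 0.618% and 0.497% of all genes. At an adjusted p of 0.05, 5 were higher and 0 lower, against 1.94% and 1.95% of all genes. The 5 were *tktb*, *rpe*, *rbks*, *prps1a* and *prps1b*, and none of them belongs to the oxidative branch, which forms the NADPH. The oxidative genes *pgd* and *pgls* did not pass at this limit, so these counts do not show a rise in NADPH-forming genes. At an unadjusted p of 0.05 the edgeR test had 8 higher and 2 lower, against 9.21% and 10.4% of all genes. DESeq2 called 2 higher and 0 lower, against 2.15% and 2.18% of the genes to which it gave an adjusted p. The median log2 fold change was 0.21, with 8 of 12 values above 0. All mutant values lay above all sibling values in 8 genes and below them in 1, against 12.9% and 13.0% of all tested genes. The second gene called was *rpe*, the epimerase of ribulose 5-phosphate, with 21.8, 23.8 and 23.5 CPM in *fdx1b*-/- larvae and 15.6, 16.3 and 18.2 CPM in siblings. It rose by 0.47 on the log2 scale (SE 0.08, Benjamini-Hochberg adjusted p = 0.00679 in the edgeR quasi-likelihood test). It lost the call without any 1 mutant library or without sibling replicate 1 (adjusted p of 0.0219 to 0.0527 in the edgeR test), so that 0 to 2 genes of the list were called with libraries left out. *pgls*, the lactonase of the oxidative branch, was not called, with a log2 fold change of 0.38 (SE 0.12) and all mutant values above all sibling values. The names of *pgd*, *pgls*, *tkta* and other genes of the list stand only in the table ordered by the outcome. The counts of this list are therefore no independent evidence of a direction.

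*idh2* (ENSDARG00000003795), the NADP-dependent isocitrate dehydrogenase of mitochondria, was the most abundant of the 7 genes. It had 491, 488 and 494 CPM in *fdx1b*-/- larvae, against 475, 478 and 506 CPM in siblings. The mutant pools lay inside the range of the sibling pools. The log2 fold change of 0.01 (SE 0.06) had a 95% confidence interval of -0.12 to 0.15 and an adjusted p of 0.929 in the edgeR quasi-likelihood test (Benjamini-Hochberg adjustment), so a change as large as the fold limit of a call lay outside the interval. Its sign turned without sibling replicate 1.

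Among the 11 tested genes of other NADPH sources, *idh2* among them, 2 were called higher and 0 lower by edgeR and by DESeq2. The shares of all genes were 0.618% and 0.497% by edgeR and 2.15% and 2.18% by DESeq2. The median log2 fold change of the list was 0.11. The list was drawn broadly, so not every gene on it forms NADPH, as *mthfd1l* below shows. At an unadjusted p of 0.05, 5 were higher and 0 lower in the edgeR test, against 9.21% and 10.4% of all genes. *mthfd1a*, a trifunctional folate enzyme of the cytosol with an NADP-dependent dehydrogenase step, had 57.5, 54.4 and 56.9 CPM in *fdx1b*-/- larvae and 24.6, 24.3 and 29.1 CPM in siblings, a log2 fold change of 1.11 (SE 0.07). *mthfd1l*, a mitochondrial enzyme that releases formate and forms no NADPH, had 48.8, 53.8 and 41.8 CPM in *fdx1b*-/- larvae and 6.12, 6.28 and 10.5 CPM in siblings, a log2 fold change of 2.64 (SE 0.17). The adjusted p of each was 1.19e-05 in the edgeR quasi-likelihood test (Benjamini-Hochberg adjustment). Both stayed called with each library left out in turn. The names of *mthfd1a* and *mthfd1l* stand only in the table ordered by the outcome, so their calls are no independent evidence of a direction. *idh1*, the cytosolic counterpart of *idh2*, had a log2 fold change of -0.10 (SE 0.08), and *nnt*, the transhydrogenase of the inner mitochondrial membrane, 0.16 (SE 0.06). The plot of fold changes by pathway step sets the 7 genes beside these lists.

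**Figure D4:**
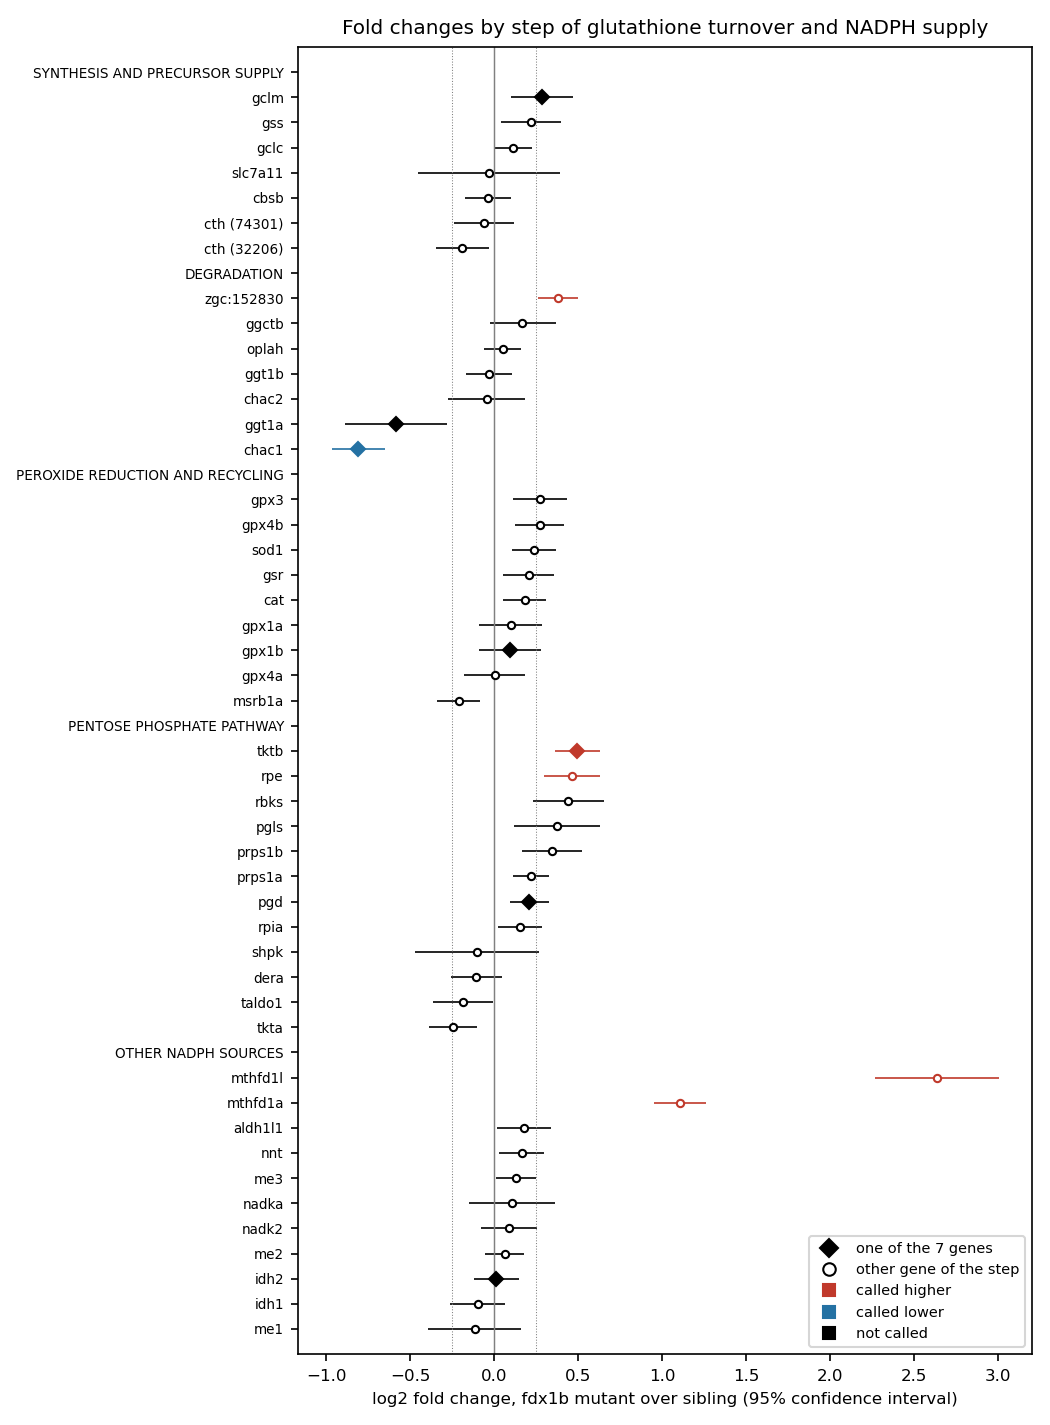
Log2 fold changes (*fdx1b* mutant over sibling) with 95% confidence intervals for the genes of 5 pathway steps, the 7 genes as filled diamonds and the others as open circles, with red for called higher, blue for called lower, black for not called, and dotted lines at the fold limit of a call. *mthfd1l* (2.64) and *mthfd1a* (1.11) lie farthest right and *chac1* (-0.81) farthest left, and most genes of the pentose phosphate pathway lie right of 0.

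Over the 5 steps together, 39 genes other than the 7 were examined. Of these, edgeR called 4 higher and 0 lower, against 0.618% and 0.497% of all genes. DESeq2 called 5 higher and 0 lower, against 2.15% and 2.18% of the genes to which it gave an adjusted p. With libraries left out, edgeR called 2 to 4 of the 39 higher. At an unadjusted p of 0.05 the edgeR test had 19 higher and 4 lower, against 9.21% and 10.4% of all genes. Their median log2 fold change was 0.11. The mutant values lay entirely above the sibling values in 18 and entirely below them in 3, against 12.9% and 13.0% of all tested genes. These values differed with the source of a gene's name. For the 14 whose name stands only in the table ordered by the outcome, 3 were called higher, 12 were higher and 2 lower at an unadjusted p of 0.05 in the edgeR test, and the median was 0.27, which is no independent evidence of a direction. Of the same 14, 12 lay entirely above and 2 entirely below the siblings. For the other 25, 1 was called higher, 7 were higher and 2 lower at an unadjusted p of 0.05 in the edgeR test, and the median was 0.05. Of the 25, 6 lay entirely above and 1 entirely below the siblings.

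Ratios within a library need no scaling between libraries. The ratio of *chac1* to *gclm*, degradation against synthesis in counts per kb, was 6.91, 8.21 and 9.30 in *fdx1b*-/- larvae, against 15.7, 17.8 and 18.5 in siblings. Each mutant ratio was far below each sibling ratio, and the difference of the mean log2 ratios was -1.10, a fold of 0.466. The ratio of *chac1* to *ggt1a* was 62.7, 66.8 and 66.8 in *fdx1b*-/- larvae, against 72.3, 84.0 and 75.9 in siblings, a smaller difference of -0.24.

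Within NADPH supply, the ratio of *tktb* to *pgd* was 2.31, 2.16 and 2.36 in *fdx1b*-/- larvae, against 1.81, 1.96 and 1.86 in siblings. The ratio of *pgd* to *idh2* was 0.111, 0.114 and 0.111 in *fdx1b*-/- larvae, against 0.103, 0.0937 and 0.0960 in siblings. Both were higher in every mutant library than in every sibling library, by 0.28 and 0.20 on the log2 scale. For each of the 4 ratios the two-sided exact permutation test gave p = 0.1 (adjusted p = 0.1 over the 4), the smallest value that 3 libraries against 3 allow, so this test cannot reach 0.05. All mutant values of *chac1* lay below and all those of *gclm* above the sibling values, so the separation of their ratio followed from these. The pairs join genes chosen with earlier results of these data known. The ratios are therefore no independent evidence of a direction.

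**Figure D5:**
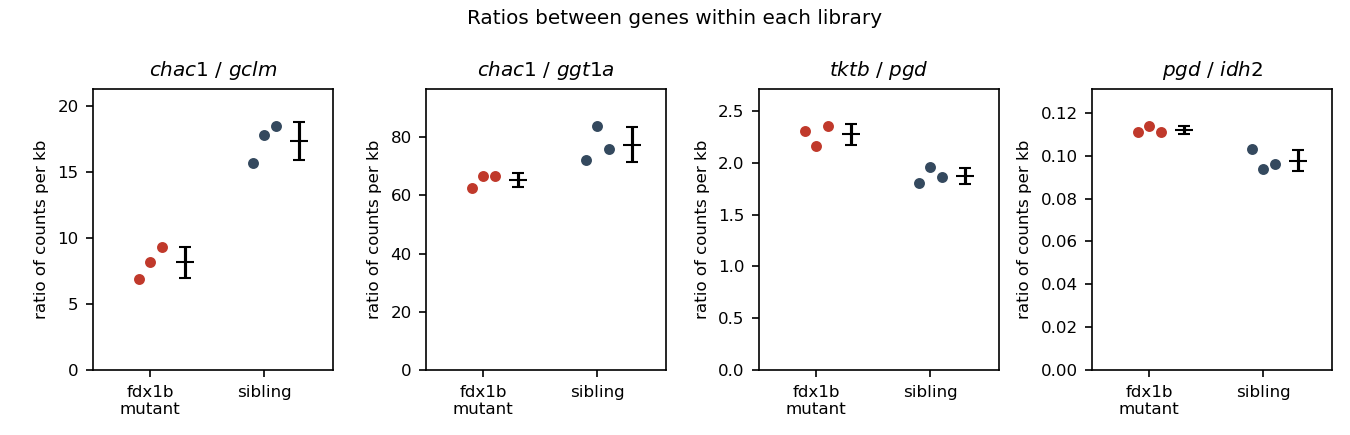
Ratios of counts per kb of exon between genes of the same library (linear axes from 0) for *chac1* to *gclm*, *chac1* to *ggt1a*, *tktb* to *pgd* and *pgd* to *idh2*, with 1 point per library, *fdx1b* mutants in red on the left and siblings in dark blue on the right, and the mean ± SD of 3 libraries in black. The groups do not overlap in any of the 4 ratios, and the ratio of *chac1* to *gclm* is displaced most. The ratio of *chac1* to *ggt1a* rests on as few as 50 counts of *ggt1a*.

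The named genes whose log2 CPM over the 6 libraries was most like that of each gene were found among 19834 named genes with a mean of at least 1 CPM. *tktb* was matched most closely by *c8a* (Pearson r = 0.9997) and *capn8* (r = 0.9977), and *chac1* by *sdhb* (r = 0.9992) and *slc22a2* (r = 0.9986). *ggt1a* was nearest to *ipo7* (r = 0.9979) and the gene listed as KCNJ3 (r = 0.9975), and *pgd* to GLYR1 (r = 0.9952) and *hexb* (r = 0.9946). *idh2* was nearest to *ggt5a* (r = 0.9964) and FZD7 (r = 0.9909), *gpx1b* to SEMA3D (r = 0.9942) and PRSS35 (r = 0.9859), and *gclm* to STX11 (r = 0.9927) and *alox12* (r = 0.9922). These values describe 6 points that share their libraries and fall into 2 genotypes, and a gene that differs between the genotypes can score high for that alone against a gene that also differs. The number of genes with an r above 0.95 was 536 for *pgd*, 302 for *tktb*, 240 for *chac1*, 173 for *ggt1a*, 107 for *gclm*, 58 for *gpx1b* and 35 for *idh2*.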

How the data were processed

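Total RNA was depleted of ribosomal RNA and made into stranded libraries. The authors mapped single-end reads onto GRCz10 with STAR (version 2.4.0i in the submitters' processing notes) and used a custom script to count the reads with a unique position in the exons of every Ensembl gene. The deposited values are raw counts, not normalized, beside the exon length of each gene in bases.

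The analysis used edgeR 4.0.16 and limma 3.58.1 in R 4.3.3. TMM factors scaled the libraries, filterByExpr kept 26544 genes, and the quasi-likelihood F test compared the 3 *fdx1b*-/- pools with the 3 sibling pools, with Benjamini-Hochberg adjustment over all tested genes. CPM values are the counts scaled to the effective library size. A level of 3 counts is 0.0601 to 0.164 CPM. The F statistic and the fold change gave the SE, and the code was tested on simulated data. The thresholds are those of the study, which used DESeq2; DESeq2 1.42.0 was run here as an alternative. Other alternatives were other size factors, filters, a robust fit, offsets on exon length, thinned libraries, the replicate number as a block and libraries left out in turn. For the pathway lists, DESeq2, left-out libraries and the degradation list without *zgc:152830* were added after seeing the data.

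The genes and lists were chosen with earlier results of these data known. The text names all 7 genes, up to 4 others per list (those called, then neighbours in the pathway), paralogs and the 2 most alike named genes. Names came from the study's tables and a reference name table, in which the identifier of *tktb* carries another transketolase symbol. Coordinates are not given, because the gene table at hand is of another assembly (GRCz12tu). Promoter and protein sequences were not used here, nor were *atf4a*, *cbsa* and *txnrd1*, and 1 further gene is not reported here.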

Additional observations from a re-analysis of the deposited data

How the results depend on the processing

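Over the 15 other settings, *chac1* stayed called (log2 fold change -0.87 to -0.76) and *gclm*, *ggt1a*, *gpx1b* and *pgd* kept their direction uncalled. *tktb* stayed called in 12 (0.47 to 0.53), so that the number of the 7 genes called higher was 0 to 1 with libraries left out, and for genes called lower it was 2 at an adjusted p of 0.05. *idh2*, near 0, turned sign with offsets on exon length (log2 fold change -0.00048) and without sibling replicate 1, over a range of -0.00147 to 0.0475 with libraries left out. Over all genes, 440 were higher and 445 lower by the Wald test of DESeq2, 514 and 518 at an adjusted p of 0.05, and 49 to 280 higher and 59 to 342 lower with libraries left out in turn and thus fewer samples; the cause of the gap between the 2 tools was not tested. The replicate numbers were not used as pairs in the main fit. Same-numbered deviations from the group means had correlations of -0.141, -0.14 and 0.091. With 3 libraries per group these values cannot decide whether same-numbered pools share an origin. With the replicate block 95 genes were called higher and 107 lower, against 164 and 132 without it, and no call among the 7 genes changed. At the looser adjusted p of 0.05, *ggt1a* did not pass edgeR with the block (0.084) or thinned libraries (0.209), nor the DESeq2 Wald test (0.0528). It passed edgeR with the other size factors, the filters, the robust fit and the offsets on exon length (0.0326 to 0.0452). For the 4 ratios only 0.5 added to the counts and left-out libraries were run, and each ratio kept its direction. Their groups did not overlap, so leaving out a library could not turn the sign, and this adds no support. *ggt1a*, with as few as 50 counts, is limited most by depth.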
